A study of Mus musculus with 2 samples.

Results

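Signals of 6 genes tied to mesenchymal identity and progenitor state, Prrx1, Cdh2, S100a4, Zfp521, Mest and Pdgfrl, were compared between control and FGF2-treated CD1 mouse embryonic fibroblasts. They are 6 of 7413 mouse genes that could be named on the array and 6 of 8379 detected genes, where a probe without a name counts as a gene of its own. The 6 were chosen by name with their FGF2 to control ratios on these arrays already known, so their differences are given as a description and carry no test. All 9 probes whose ID holds the NCBI gene ID of a member were taken, and a probe counted as detected at a detection score of at least 0.99. CD1 mouse embryonic fibroblasts are primary connective tissue cells of an outbred strain. In both groups the cells had been expanded with fetal calf serum, growth-arrested with mitomycin C and replated on gelatine at 55000 cells per square centimetre. On the following day both groups received serum replacement medium for human embryonic stem cells and stayed in it for 24 h. The control group had no added FGF2, and the other group had 40 ng/ml of FGF2, a fibroblast growth factor. Each group was 1 culture on 1 array, so there was no replicate check, and every difference below is a difference between these 2 arrays. In bulk RNA, fewer cells of a type and less RNA per cell cannot be told apart.

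The mesenchyme is the loosely packed embryonic tissue that gives rise to fibroblasts, bone, cartilage, fat and smooth muscle. Its cells are held in an uncommitted, motile state by transcription factors such as those of the paired-related homeobox, Twist, Snail and ZEB families, and they carry N-cadherin in place of the E-cadherin of epithelia. Embryonic fibroblasts keep many of these genes on in culture, together with imprinted genes that are expressed from 1 parental copy and are typical of growing fetal tissue.

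The arrays had 1 colour and 24044 probes, of which 34.1% were detected without FGF2 and 33.8% with it. The undetected probes had median signals of 141 and 133, so part of every dim signal was background. Signals were quantile normalized, raised to the lowest detected signal of their array (192 and 193) where they lay under it, and expressed as a log2 ratio of FGF2 over control. The bead error of a ratio comes from the spread between beads of a probe. A wider error came from 523 probes of 247 genes with 2 or more probes detected throughout: the SD of log2 ratios within a gene was 0.18. Across all 8379 detected genes the median log2 ratio was 0.01, and the middle 95% ran from -0.86 to 0.75. Of these genes, 1.85% were lower and 1.37% higher with FGF2 by 2-fold or more, while 5.57% were lower and 4.34% higher by 1.5-fold or more. Of 10 fibroblast markers, 4 had a named probe and 3 were detected, namely Dcn, a proteoglycan gene, and Col1a1 and Col1a2, which code for type I collagen. The matrix gene Postn was not detected. Col1a1 and Col1a2 were themselves at least 2-fold lower with FGF2, with log2 ratios of -1.76 and -1.30, and Dcn stood at 0.42. Col1a1 and Col1a2 thus went in the direction of the lower members, and Dcn went the other way. The part of these markers in the members' differences was not tested. The labelled cell type was checked on these few markers only.

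Of the 6 members, 5 had a lower signal on the FGF2 array and S100a4 had a higher one. Zfp521, Mest and Pdgfrl were each at least 2-fold lower, and no member was 2-fold higher. Prrx1 and Cdh2 differed by less than 1.5-fold on their brightest probes. The median log2 ratio of the members was -1.16. The shares of all detected genes at these folds are the 1.85% and 1.37% given above, and nothing is read from the contrast because the members were picked with their ratios in view. By rank from the lowest ratio among the 8379 genes, Pdgfrl stood at 30, Zfp521 at 36, Mest at 39, Prrx1 at 518 and Cdh2 at 1282. S100a4 stood at rank 211 from the highest. All 9 probes are accounted for: 7 were detected on both arrays, 1 on the control array alone and 1 on neither.

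**Figure D1:**
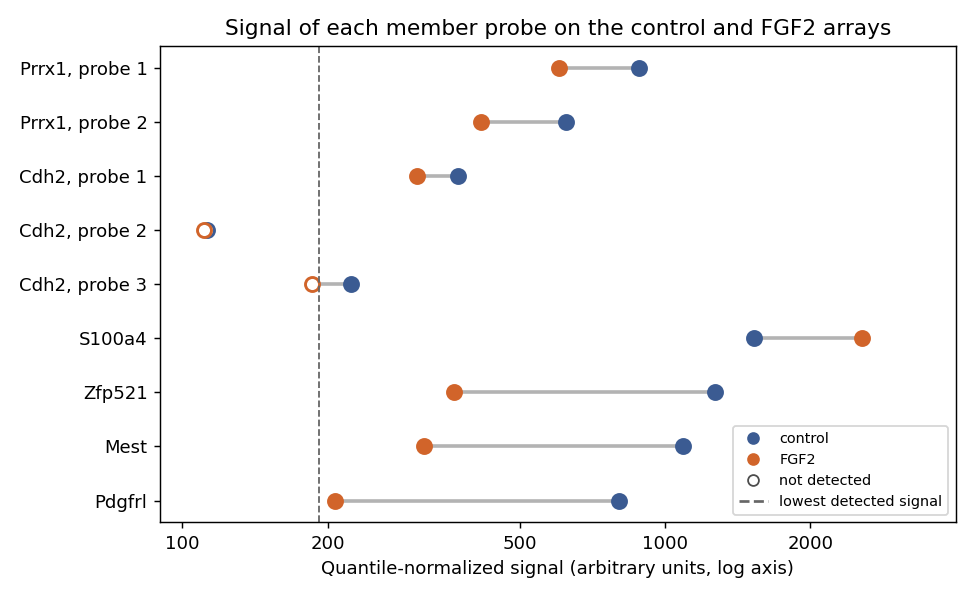
Quantile-normalized signal (horizontal log axis, arbitrary units) of the 9 probes of the 6 members without FGF2 (blue) and with FGF2 (orange); open circles are probes that were not detected and the dashed line is the mean of the 2 arrays' lowest detected signals. The orange point lies to the left of the blue one for every detected probe other than that of S100a4.

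**Figure D2:**
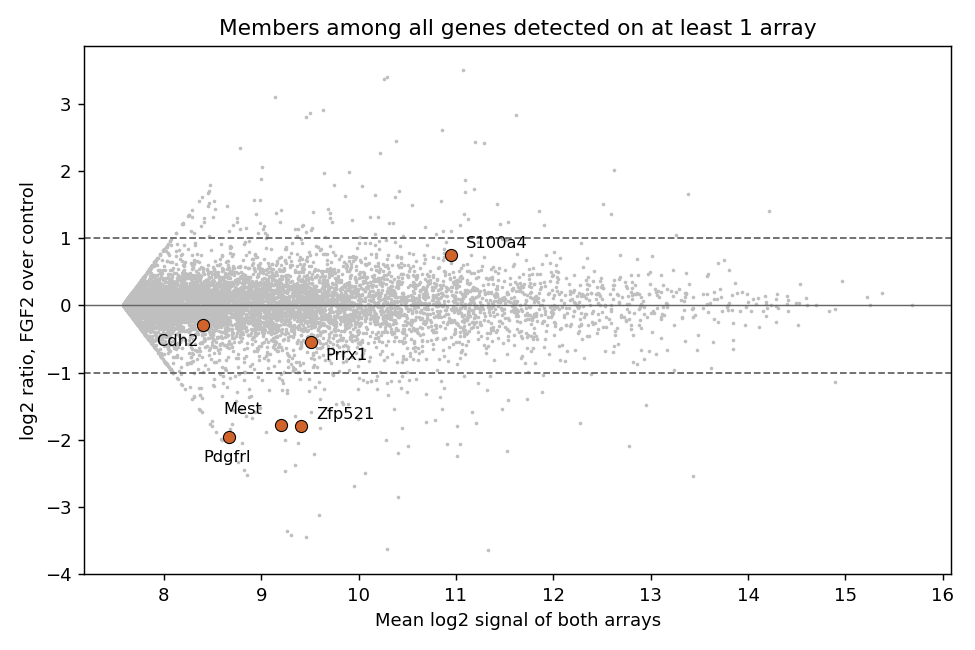
Log2 ratio of FGF2 over control (vertical) against the mean log2 signal of both arrays (horizontal) for the 8379 genes detected on at least 1 array, in grey, with the 6 members in orange; dashed lines mark 2-fold. Zfp521, Mest and Pdgfrl lie below the lower dashed line, and Cdh2, Prrx1 and S100a4 lie between the lines.

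Prrx1 codes for a paired-related homeobox transcription factor of limb and craniofacial mesenchyme. Its brighter probe had a deposited signal of 901 ± 24.9 (bead SD) without FGF2 and 593 ± 25.4 with it. Its other probe read 635 ± 21.5 and 404 ± 16.4. Both probes were lower with FGF2, with log2 ratios of -0.55 and -0.59 after normalization and bead errors of 0.074 and 0.076. The pair differed by 0.04 on the log2 scale, less than the SD of 0.18 between probes of one gene. The brighter probe was 1.46-fold lower, just inside 1.5-fold, and 1.57-fold lower in the authors' table. The other probe was 1.503-fold lower, just past 1.5-fold, and 1.72-fold lower in the authors' table. Of all detected genes, 6.18% had a ratio as low as that of Prrx1 or lower.

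Most of the other detected mesenchymal transcription factors differed by less than 1.5-fold, with more ratios below 0 than above. Of 41 listed genes, 13 had a probe with a name and 8 of these were detected, Prrx1 included. Of the 7 others, 2 were at least 1.5-fold lower, against 5.57% of all detected genes, and none was 1.5-fold higher, against 4.34%. The median log2 ratio of the 7 was -0.29, against 0.01 over all detected genes. Of the 7, 5 were below 0, against 47.6% of all detected genes. Shox2, a homeobox factor of the limb skeleton, was detected on the control array only, with a normalized signal of 387 and was under the lowest detected signal with FGF2, which puts it at the edge of 2-fold lower (at least 4.40-fold in the authors' table). Foxp1, a forkhead factor, was 1.54-fold lower, with normalized signals of 518 without and 336 with FGF2. The ZEB family genes, which repress E-cadherin, had log2 ratios of 0.09 for Zeb1 and -0.42 for Zeb2. Wwtr1, the YAP-related coactivator TAZ, had the highest ratio of the list, 0.36, and Tcf4 stood at -0.02. Tbx15, Tbx18, Alx4 and Pitx1 were among those not detected on either array.

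Zfp521 codes for a large zinc finger protein that binds early B-cell factors and holds mesenchymal precursors back from becoming fat cells. Its probe had a deposited signal of 1295 ± 40.9 without FGF2 and 356 ± 14 with it. The value with FGF2 was still well above the lowest detected signal. The normalized signals of 1271 and 365 gave a log2 ratio of -1.80 with a bead error of 0.073, or 3.48-fold lower. In the authors' table, with background taken off, it was 4.89-fold lower. Only 1 probe carried the name, so the ratio has no second probe beside it. Among the 1676 genes in its bin of mean signal, of 5 bins over all genes, 13 had a ratio as low or lower.

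No other listed gene of the fat lineage detected on both arrays had a ratio as low as that of Zfp521. Of 30 adipogenic and early B-cell factor genes, 17 had a named probe and 10 were detected. Zfp423, Ebf2 and Pparg were among the genes without a named probe. Apart from Zfp521, 2 of 9 were at least 1.5-fold lower and 1 was at least 1.5-fold higher, and their median log2 ratio was 0.01. Ebf1, a transcription factor that Zfp521 binds, had normalized signals of 434 and 334 and a log2 ratio of -0.38. Ebf3, detected on the control array only at a normalized signal of 196, had a bound of -0.02. That signal was close to the lowest detected one, so the bound could not lie far below 0. Dlk1, the preadipocyte surface protein that restrains adipogenesis, was 1.66-fold lower, with normalized signals of 1354 and 814. Lpl, the lipoprotein lipase, was detected on the control array only and had a bound of -0.59 on the log2 scale (at least 2.74-fold lower in the authors' table). The ratios of Ebf3 and Lpl themselves are not known. Klf5, a Krüppel-like factor that promotes fat cell differentiation, was 1.61-fold higher, with normalized signals of 379 and 611. Cebpb, an early adipogenic factor, had a log2 ratio of 0.29. Cebpa, Fabp4 and Cd36, which mark later fat cells, were not detected on either array.

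Cdh2 codes for N-cadherin, the calcium-dependent adhesion molecule of mesenchymal and neural cells. Its 3 probes differed in whether they were detected. The brightest read 382 ± 14.4 without FGF2 and 298 ± 11.2 with it, a log2 ratio of -0.29 with 0.077 as its bead error. The next read 231 ± 8.1 and 179.8 ± 7.8 and was detected on the control array only, with a detection score of 0.981 on the FGF2 array. That score is the nearest below the limit of 0.99 among the members, and the nearest above it is the 0.996 of Pdgfrl with FGF2. The bound of this probe was -0.21, and the deposited signals without a floor gave -0.36 on both it and the brightest probe. The remaining probe read 116 ± 4.4 and 107 ± 8.9 with detection scores of 0.069 and 0.055, and so was not detected on either array. Both detected probes were thus lower with FGF2, by 1.22-fold on the brightest, but 15.3% of all detected genes had a ratio as low or lower.

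Most other adhesion genes differed by less than 1.5-fold as reported, and some of them by more in the authors' table. Of 35 cadherin, catenin and junction genes, 19 had a named probe and 10 were detected. Apart from Cdh2, 1 of 9 was at least 1.5-fold lower and none was 1.5-fold higher, and the median log2 ratio was -0.06. The exception was Cdh3 (P-cadherin), detected on the control array only, which was lower by at least 1.68-fold, or at least 3.30-fold in the authors' table. The catenins that tie cadherins to actin had log2 ratios of 0.09 for Ctnna1 and -0.39 for Ctnnd1, and Jup (plakoglobin) stood at -0.06. Cdh13, a cadherin anchored in the membrane by a lipid, had a ratio of 0.14 at dim signals of 198 and 218. Pcdh7, a protocadherin, had the highest ratio of the list, 0.58 (2.11-fold higher in the authors' table). Pkp2, of the same list, stood at -0.45 (2.27-fold lower in the authors' table). Cdh11, the cadherin of osteoblasts and fibroblasts, was not detected, with a score of 0.972 on the control array.

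S100a4, also called fibroblast-specific protein 1, is a small calcium-binding protein that binds non-muscle myosin and is used as a marker of fibroblasts and motile mesenchymal cells. It was the one member with a higher signal on the FGF2 array. Its probe had a deposited signal of 1551 ± 60.6 without FGF2 and 2576 ± 96.6 with it. The log2 ratio was 0.75 with a bead error of 0.078, or 1.68-fold higher. Of all detected genes, 2.52% had a ratio as high or higher, and in the bin of the brightest genes 70 of 1676 did.

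Other detected S100 genes and partners had smaller positive ratios or none. Of 21 listed genes, 8 had a named probe, and 5 of them were detected. None of the 4 genes other than S100a4 passed 1.5-fold in either direction, and their median log2 ratio was 0.38. S100a11, a relative of S100a4, had normalized signals of 1854 and 2469 and a log2 ratio of 0.41. Anxa1, an annexin that binds S100a11, stood at 0.34, and Cacybp, which binds S100 proteins, at 0.51. S100a3 was near the lowest detected signal on both arrays, with 203 and 199.9 and a ratio of -0.02. S100a9 and S100b, which mark myeloid and glial cells, were not detected.

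Mest (mesoderm-specific transcript, also Peg1) is an imprinted gene expressed from the paternal copy in fetal mesoderm and codes for a protein of the hydrolase fold. Its probe had a deposited signal of 1112 ± 40.4 without FGF2 and 309.9 ± 11.4 with it. The normalized signals of 1091 and 317 gave a log2 ratio of -1.78 with a bead error of 0.075, or 3.44-fold lower. The fold was 5.17 in the authors' table. Among the 1676 genes in its bin of mean signal, 14 had a ratio as low or lower. Mest has 1 named probe, which does not tell its transcripts with different start sites apart.

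The sequences upstream of the start sites are shown for Mest, which is 1 of the 5 lower members, and S100a4, the higher one, because they differ in their content of CG dinucleotides, the sites of DNA methylation. They are the 250 bases before a RefSeq start site in GRCm38.p6, read 5′ to 3′ on the plus strand, with CG dinucleotides in capitals. The Mest sequence is at chr6:30737800-30738049 and the S100a4 sequence at chr3:90603520-90603769.
Mest: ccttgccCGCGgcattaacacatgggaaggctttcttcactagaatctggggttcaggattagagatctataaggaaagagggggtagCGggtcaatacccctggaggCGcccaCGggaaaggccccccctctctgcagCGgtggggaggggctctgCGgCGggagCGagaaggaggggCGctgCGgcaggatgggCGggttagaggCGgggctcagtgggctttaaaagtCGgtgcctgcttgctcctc
S100a4: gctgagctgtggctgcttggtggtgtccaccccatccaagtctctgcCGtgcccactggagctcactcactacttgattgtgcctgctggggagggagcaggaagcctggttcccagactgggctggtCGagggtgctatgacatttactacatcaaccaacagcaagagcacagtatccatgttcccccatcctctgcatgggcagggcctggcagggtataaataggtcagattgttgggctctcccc

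The Mest sequence held 14 CG dinucleotides and that of S100a4 held 2, against a median of 6 over 32851 such windows in the RefSeq promoter table. Of these windows, 29.4% held as many as Mest and 29.0% held as few as S100a4. A second Mest start site, with the window at chr6:30733256-30733505, had 7, and the window of Prrx1 had 4. Entries were matched by symbol for 3 of the 6 members. TATAAA, the letters of a TATA box, was found on either strand in the S100a4 window and in no window of Mest or Prrx1, and 12.4% of all windows hold it. CACCTG, an E-box read by Snail and ZEB factors, was found in the second Mest window only and is held by 17.2% of all windows. TGANTCA, the AP-1 site, was found in none of them and is held by 6.75% of all. No window held more than 1 of these motifs, so none overlapped another. These matches are letters in a window, and the arrays did not measure methylation or binding there.

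Beside Mest, the imprinted genes Peg3 and Dlk1 were lower by 1.5-fold or more. Of 55 imprinted genes listed, 20 had a named probe and 13 were detected. Apart from Mest, 9 of 12 had ratios below 0, against 47.6% of all detected genes. Of these 12, 2 were at least 1.5-fold lower, none was 1.5-fold higher, and the median log2 ratio was -0.32. Peg3, a paternally expressed zinc finger gene of growing fetal tissue, had normalized signals of 510.4 without and 218 with FGF2. It was 2.34-fold lower and 4.61-fold lower in the authors' table, with a bead error of 0.082 on the log2 scale. Dlk1, also expressed from the paternal copy, was 1.66-fold lower, as given above. The next in order were at -0.53 for Gnas, which codes for the stimulatory G protein alpha subunit, at -0.52 for the amino acid transporter gene Slc38a4 and at -0.48 for Impact, a regulator of translation. Ddc and Grb10, detected without FGF2 alone, had bounds of -0.53 and -0.14. Ratios near or above 0 were those of Snrpn (0.02), Tssc4 (-0.06), Commd1 (0.32) and Dcn (0.42). Meg3, Plagl1 and Nnat were not detected. The list mixes genes expressed from the maternal and the paternal copy, and some of them are imprinted in few tissues.

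Pdgfrl codes for a secreted protein that resembles the ligand-binding part of the platelet-derived growth factor receptors and lacks a kinase. It had the lowest ratio of the members. Its probe had a deposited signal of 814 ± 38.0 without FGF2 and 200.2 ± 8.6 with it. The log2 ratio was -1.96 with a bead error of 0.092, or 3.88-fold lower. With FGF2 its normalized signal of 207 was close to the lowest detected signal of 193, and its detection score was 0.996. The size of the fold therefore depended on how background was treated: in the authors' table, with 675 and 72.4, it was 9.33-fold lower, and with 50 added to each signal the log2 ratio was -1.73. Among the 1675 genes in its bin of mean signal, 7 had a ratio as low or lower.

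The other detected genes of PDGF signalling mostly differed by less than 1.5-fold. Of 21 ligands, receptors and signalling genes, 13 had a named probe and 7 were detected, and the receptors Pdgfra and Pdgfrb had no named probe and were not analysed here. Apart from Pdgfrl, none of 6 was 1.5-fold lower and 1 was 1.5-fold higher, and the median log2 ratio was 0.07. The ligand genes Pdgfa and Pdgfc had log2 ratios of 0.08 and -0.11. Rasa1, a GTPase-activating protein that switches off Ras and binds the activated PDGF receptor, was 2.15-fold higher, with normalized signals of 1346 and 2901. Ptpn11, the phosphatase SHP2, stood at 0.05 on its brighter probe and at -0.05 on the other. Stat3 stood at -0.25 on its brighter probe and at -0.51 on the other. Src, Crk and Nck1 were not detected.

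Further stromal and skeletal genes went in both directions. Of 35 stromal and mesenchymal markers, 11 had a named probe and 8 were detected, S100a4 included. Nes (nestin), an intermediate filament protein of progenitor cells, was 2.11-fold higher, with normalized signals of 362 and 763. Alcam, an adhesion molecule of mesenchymal stromal cells, was 1.99-fold higher, with 483 and 959.9. Vcam1, an adhesion molecule induced by inflammatory cytokines, was 1.95-fold lower, with 2494 and 1276, and Serpinh1, the collagen chaperone HSP47, had a log2 ratio of -0.65. Cd44 and Ngfr were not detected. The median over the 7 markers other than S100a4 was -0.03.

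Of 30 skeletal lineage genes, 14 had a named probe and 8 were detected, of which 3 were lower and 1 was higher by 1.5-fold or more. The shares of all detected genes were 5.57% and 4.34%. Of the 8, 4 had ratios below 0, against 47.6% of all detected genes. Scx (scleraxis), the transcription factor of tendon progenitors, was 1.73-fold lower, with normalized signals of 472 and 272. Col2a1, the cartilage collagen gene, was 1.68-fold lower, and Runx1, a factor of early skeletal and blood progenitors, had a log2 ratio of -0.59 (2.61-fold lower in the authors' table). Spp1 (osteopontin) was 4.03-fold higher. Sox5 and Mgp both had log2 ratios of 0.20, and Mef2c stood at -0.55 (2.61-fold lower in the authors' table). The list median was -0.27. Over alternative settings this median ran from -0.55 to -0.07. Runx2, the factor that commits cells to bone, and the osteoblast genes Alpl and Bglap were not detected on either array.

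**Figure D3:**
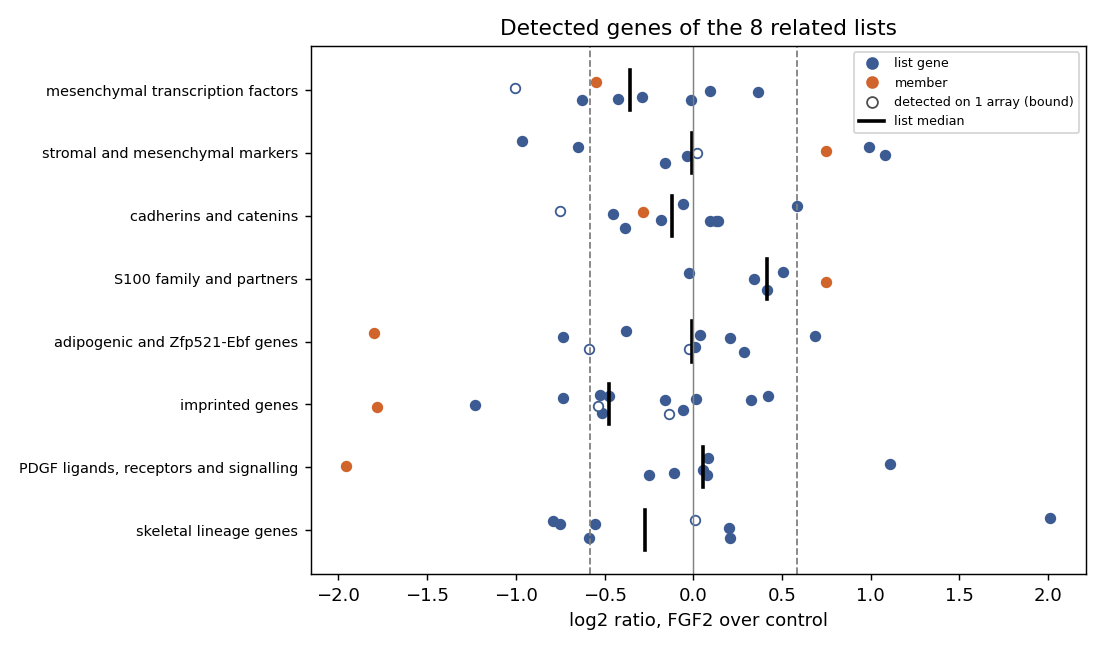
Log2 ratio of FGF2 over control (horizontal) of the detected genes of 8 related lists, 1 row per list, with members in orange, genes detected on 1 array only as open circles and the list median as a black bar; dashed lines mark 1.5-fold. Zfp521, Mest and Pdgfrl lie to the left of every other gene in their rows.

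Over all 8 lists without the members, 258 genes, 106 had a named probe and 60 were detected. Of the 60, 11 (18.3%) were at least 1.5-fold lower against 5.57% of all detected genes, and 5 (8.33%) were at least 1.5-fold higher against 4.34%. Nothing is read from the contrasts of these lists with all detected genes, because the lists were chosen with earlier results known. The median over the 60 was -0.02, against 0.01 over all genes. At 2-fold, 2 of the 60 (3.33%) were lower, Peg3 and, as a bound, Shox2, against 1.85% of all detected genes. Spp1, Rasa1 and Nes, 3 of the 60, were higher, against 1.37%. Of 32 relatives and markers named for reporting whatever their value, 12 had a named probe and 9 were detected. The others, among them Vim, Thy1, Twist1, Snai2, Prrx2 and Zfp423, were not analysed here.

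Likeness of pattern can be stated over 2 arrays only as closeness of the log2 ratio. The search covered the 2882 genes with a name and detection on both arrays. Zfp521 (-1.80) and Mest (-1.78) were closer to each other than to any of these outside the 6 members. With the members left out, the closest to Zfp521 on either side were Pmp22 (-1.82), a membrane protein of myelin and fibroblasts, and Col1a1 (-1.76). The search gave Pmp22 and Col1a1 for Mest too. Pdgfrl lay between the growth factor gene Tgfb2 (-2.04) and Limch1 (-1.83), which codes for an activator of non-muscle myosin. These differed from their member by 0.02 to 0.12, less than the SD of 0.18 between probes of one gene.

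Markers of other cell types were mostly not detected. Of 5 epithelial markers with a named probe, 2 were detected, and their summed values in the authors' table were 143 without and 346 with FGF2. Krt18, a keratin of simple epithelia that is also found in cultured fibroblasts, made most of that difference, with 72.1 and 257. It was 3.57-fold higher in the authors' table and 1.88-fold higher after quantile normalization. Krt8 and Krt19 were not detected. Of 4 endothelial markers 1 was detected, Emcn, with 137 and 171, and Pecam1 was not. Of 7 macrophage and blood markers 2 were detected, Lyz2 and Hba-a1, and Ptprc, Csf1r and Cd68 were not. Lyz2 had authors' values of 91.9 and 71.3 and a log2 ratio of -0.12, and Hba-a1, detected on the control array alone, had a bound of -0.04. The summed authors' values of this list were 157 without and 71.3 with FGF2, where Hba-a1 had no value. Its summed deposited signals, which still held background, were 1366 without and 1222 with FGF2. Of 10 neural and glial markers only Tubb3 was detected, with 105 and 75.5, and no muscle marker had a named probe. The part of other cells in the members' differences was not tested.

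**Figure D4:**
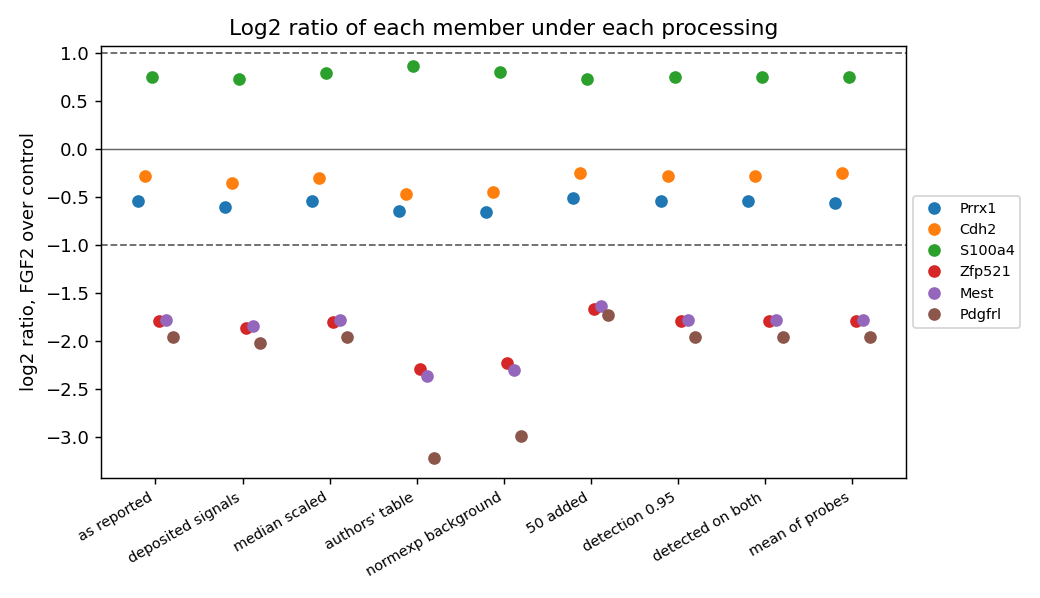
Log2 ratio of FGF2 over control (vertical) of each member as reported and under 8 alternative ways of processing (horizontal); dashed lines mark 2-fold. Zfp521, Mest and Pdgfrl stay below the lower line and S100a4 stays above 0 throughout, and Pdgfrl ranges from -3.22 to -1.73.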

How the data were processed

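Total RNA of 2 cultures was measured on Illumina bead arrays, from 300 ng of RNA and 6 h of in vitro transcription with a Cy3 label, per the labels' protocols. BeadStudio 1.0 was used, per the submitters' processing notes. The deposited array files hold 3 columns for each probe, per the file headers: the mean bead intensity, the bead standard deviation and a detection score. Bead numbers are not given in the sources used here. The deposited intensities still held background. The authors' value table of the same arrays is linear. Against the array files, 139 was taken off each control signal and 132 off each FGF2 signal, which was then multiplied by 1.05, within 0.095 units. Its medians were 288 and 293, and how its factor was set is not known.

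Genes were named by reading the number of at least 5 digits after 1 or 2 zeros in a probe ID as an NCBI gene ID in the RefSeq table (GRCm38.p6), or by a RefSeq accession. Of 9523 such numbers, 93.3% matched, against 48.6% of the numbers 1 higher. The files do not state this match, and every name depends on it. A gene was represented by its brightest detected probe. A gene detected on 1 array has a bound, set at the lowest detected signal of the other. With 1 array per group there was no test and no p-value, and the number of arrays limits the precision.

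Members and lists were chosen with earlier results of these data known. Text names every member probe, in each list up to 4 detected genes with the largest difference among those at least 1.5-fold apart, 32 fixed relatives where measured and the nearest genes by ratio. Other list genes were named after their values were seen. The calculation was tested on simulated data, and alternatives are given in the closing section. The software was Python 3.11.15, numpy 2.4.6 and pandas 2.3.3, and R 4.3.3 with limma 3.58.1 for the normexp alternative.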

Additional observations from a re-analysis of the deposited data

How the results depend on the processing

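The 3 members at least 2-fold lower, Zfp521, Mest and Pdgfrl, were so under all 8 alternatives, which were signals as deposited, median scaling, the authors' table, normexp background correction, an added 50, detection at 0.95, detection on both arrays and the mean of all probes. Detection at 0.95, detection on both arrays and the mean of all probes could not change these 3 ratios. Each of the 3 genes has 1 probe, and it was detected on both arrays. All 6 members kept their sign under the alternatives. The settings that remove background changed sizes most. With the authors' table and with normexp the members' median was -1.47 and -1.45, the genes at least 2-fold lower numbered 389 and 333, and those at least 2-fold higher 290 and 246, against 155 and 115 as reported. With normexp 17 related genes were at least 1.5-fold lower in place of 11. At 1.5-fold in place of 2-fold, 467 genes were lower, 364 were higher and 1 member, S100a4, was higher. Of the other 112 values, 12 moved by more than 0.18 and none of a called gene changed sign. No paired analysis was possible because each group has 1 array. A ratio near the lowest detected signal is limited by background, as for Pdgfrl.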
